A study of Mus musculus with 12 samples.

Results

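The mitochondrial ribosomal protein genes were followed in 3T3-L1 cells, an established mouse fibroblast line that converts into fat cells after hormonal induction. They were taken as every gene of the deposited count table whose symbol opens with Mrpl or Mrps followed by a digit, pseudogenes left out, which gave 78 of 16414 genes. By symbol, 49 belong to the large subunit and 29 to the small subunit. Before differentiation the fibroblasts were lipofected for 48 h with either a mimic of miR-335-5p (20 nM), which is a synthetic form of the mature microRNA, or a scrambled non-targeting (NT) mimic. The cells were then given insulin, 3-isobutyl-1-methylxanthine, rosiglitazone and dexamethasone up to day 3, insulin alone on the days that followed, and serum medium without insulin on the last day. RNA was sequenced from 3 libraries of each of 4 groups, namely miR-335-5p mimic at day 6, NT mimic at day 6, miR-335-5p mimic at day 3 and NT mimic at day 3. All groups therefore carried a mimic and none was left untransfected. Days of differentiation and withdrawal of the induction agents cannot be told apart in this design. One cell line was used, and the labels do not say that replicates are separate cultures, so each p-value reflects the spread among these libraries, part of which may be technical.

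Mitochondrial ribosomes translate the few messages of the mitochondrial genome, all of which encode membrane subunits of the respiratory chain and ATP synthase. Their rRNAs come from mitochondrial DNA, whereas every ribosomal protein is encoded in the nucleus, made in the cytosol and imported. The small subunit decodes the message and the large subunit forms the peptide bond, and both carry proteins with bacterial counterparts beside supernumerary proteins that bacteria lack. In adipocytes mitochondria supply acetyl units, ATP and reducing power for lipid synthesis.

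Library totals ran from 17690656 to 18936779 counts, and the 78 genes took 0.393% to 0.477% of them. The lowest count of any of these genes in any library was 145, so all 78 passed the filter on low counts and were among the 11703 genes tested. Levels are given as CPM, counts per 1e+06 counts of a library after TMM scaling, which corrects for library composition, and log2 values are fold changes fitted with edgeR's quasi-likelihood test. A gene was called at a Benjamini-Hochberg adjusted p below 0.01 over all 11703 genes, the threshold of the study. Of 8 tested adipocyte markers, the hormone Adipoq and the lipase Lpl were called higher at day 6 under both mimics. The lipid droplet protein Cidec was called lower (log2 -1.60 and -1.76 for the miR-335-5p and the NT mimic). The others, Fabp4 among them, were not called in the fit without a block. With the replicate number as a block, Cebpa and Cd36 were also called higher under both mimics. Pparg was then called higher under the miR-335-5p mimic, and Plin1 lower under the NT mimic. Adipoq stood at 1490 to 2030 CPM at day 6 and 65.2 to 162.4 CPM at day 3. The 5 preadipocyte and fibroblast markers all had positive log2 values, with medians of 1.46 and 1.21, and of these Pdgfrb and Dlk1 were called, or all 5 with the replicate number as a block. Their part in the differences between days below was not tested. Among markers of other cells, Cd68 of leukocytes reached 6.717 CPM and the endothelial marker Pecam1 0.8581 CPM, both at day 6, called higher in the blocked fit alone, with log2 values of 2.55 and 2.00 for Cd68 and 2.32 and 1.99 for Pecam1. The leukocyte markers Ptprc and Adgre1, the endothelial marker Cdh5, the epithelial marker Cdh1 and the muscle marker Ckm reached at most 0.101 CPM in any library.

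The mean level over all 12 libraries ranged from 10.04 to 239.6 CPM with a median of 46.21 CPM. Per kilobase of transcript, the scale on which levels of different genes are compared here, the 78 genes ran from 3.343 to 283.2 CPM per kb around a median of 32.83 CPM per kb. Mrps6, the counterpart of bacterial S6, was the highest at 283.2 CPM per kb. Mrpl12, the stalk protein that recruits translation factors, followed at 141.4 CPM per kb and Mrps18a at 111.1 CPM per kb. Mrpl47 at 5.143 CPM per kb and Mrpl48 at 3.343 CPM per kb were the lowest. The length used was that of the annotated transcript with the longest coding sequence, so the order depends on which isoform the cells express, which was not measured. Per kilobase of coding sequence Mrps6 and Mrpl12 stayed the highest, at 638.9 and 308.5 CPM per coding kb, while Mrpl51 came next at 273.1, Mrps18a stood at 167 and the lowest was Mrps28 at 17.99 CPM per coding kb.

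Between the days of differentiation, a minority of the 78 genes was called lower at day 6 than at day 3, most of them genes of the large subunit, and Mrps6 alone was called higher. Under the miR-335-5p mimic 21 of the 78 genes (26.9%) fell and 1 rose, against a background of 16.5% of all tested genes called lower and 18.2% called higher. With the NT mimic 24 of 78 (30.8%) fell and 1 rose, with 16.7% of all genes called lower and 18.8% higher. Among large subunit genes 19 of 49 (38.8%) fell under each mimic, whereas 2 of 29 small subunit genes (6.9%) fell under the miR-335-5p mimic and 5 of 29 (17.2%) under the NT mimic. The fitted log2 value, called or not, was negative for 67 of 78 genes under the miR-335-5p mimic and for 69 under the NT mimic, and in the small subunit for 24 of 29 under each. Its median was -0.41 for the large subunit and -0.23 for the small subunit under the miR-335-5p mimic, and -0.41 and -0.25 under the NT mimic, beside 0.019 and 0.029 over all genes. With Mrps18a and Mrps30 counted in the large subunit and Mrps36 in neither, the medians changed. They were then -0.37 for the large and -0.27 for the small subunit under the miR-335-5p mimic, and -0.32 and -0.26 under the NT mimic. The difference between the subunits is a description over genes and was not tested. It depended on this placement and on the count used, as given below. With library totals alone as the scale, the median of all genes lay 0.16 and 0.17 higher, 11 genes fell and 2 rose under each mimic beside 9.93% and 9.91% of all genes lower and 24.7% and 25.7% higher, and the median of the 78 genes minus that of all genes stayed at -0.29 and -0.34. In these bulk samples, fewer cells of a type and less RNA per cell cannot be told apart.

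**Figure D1:**
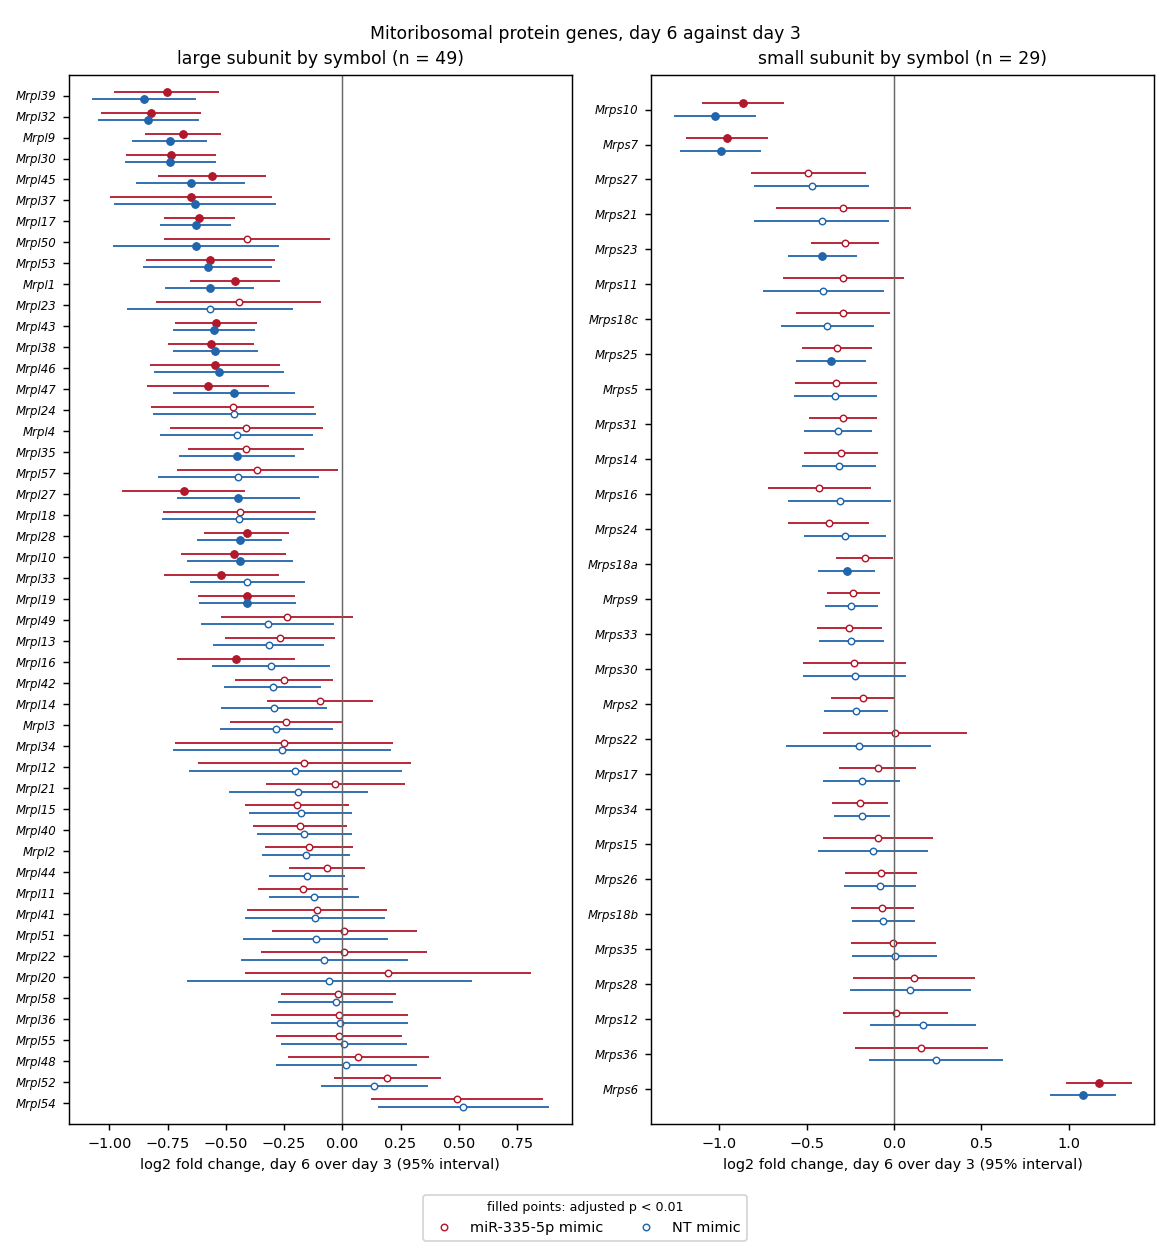
Fitted log2 fold change of day 6 over day 3 (x axis, with its 95% interval) for each of the 49 large subunit and 29 small subunit genes, under the miR-335-5p mimic (red) or NT mimic (blue), filled where the adjusted p was below 0.01. Most points lie left of 0, and Mrps6 stands alone at 1.17 and 1.08.

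Counting genes whose 3 libraries did not overlap between days gave the same direction. Under the miR-335-5p mimic 41 of 78 genes were lower in all day 6 libraries than in any day 3 library and 3 were higher, with backgrounds of 27.5% and 29% of all genes. In the NT libraries 49 were lower and 2 higher, with backgrounds of 28.8% and 30.8%. By subunit, 26 of 49 large (53.1%) and 15 of 29 small subunit genes (51.7%) were lower without overlap under the miR-335-5p mimic. With the NT mimic these were 32 (65.3%) and 17 (58.6%). The comparisons under the 2 mimics share no library, although all libraries entered 1 fit. Of the genes called lower, 19 were called under both mimics, which is 90.5% of the calls under the miR-335-5p mimic and 79.2% of those under the NT mimic. The same overlap was not counted over all tested genes, so these shares cannot be read as particular to the 78 genes. These 19 comprised 17 large subunit genes together with Mrps7 and Mrps10. In neither direction were 51 genes called under either mimic. Mrpl16 and Mrpl33 were called lower under the miR-335-5p mimic alone and Mrpl35, Mrpl50, Mrps18a, Mrps23 and Mrps25 under the NT mimic alone. In each of these 7 the test of the difference between the mimics' day effects gave an adjusted p of 1. With the replicate number as a block, 6 of the 7 were called lower under both mimics, Mrps18a being the other one.

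The replicate numbers in the labels paired the samples. With the number as a block, 34 of the 78 genes fell and 2 rose under the miR-335-5p mimic, against 24.7% of all genes lower and 27% higher. In the same blocked fit 37 fell and 2 rose under the NT mimic, against 24.3% lower and 27.5% higher. Every gene called without the block was called with it. By subunit, 24 of 49 large (49%) and 10 of 29 small subunit genes (34.5%) were then lower under the miR-335-5p mimic. Under the NT mimic these were 28 (57.1%) and 9 (31%). The second gene called higher in the blocked fit was Mrpl54, a supernumerary large subunit protein, which read 30.07, 20.39 and 23.14 CPM at day 6 and 16.72, 16.57 and 19.00 CPM at day 3 under the miR-335-5p mimic. For the NT mimic Mrpl54 read 31.24, 23.91 and 20.55 CPM at day 6 and 17.96, 17.26 and 17.58 CPM at day 3. Its days did not overlap under either mimic, and its adjusted p was 0.029 without and 0.00864 with the block under the miR-335-5p mimic, and 0.0229 without and 0.00604 with it under the NT mimic.

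Mrps6 was the one gene called higher without the block. Under the miR-335-5p mimic it measured 353.8, 310.8 and 299.6 CPM at day 6, against 146.6, 136.7 and 145.0 CPM at day 3. Under the NT mimic it measured 321.2, 343.6 and 341.6 CPM at day 6, against 149.0, 170.7 and 156.2 CPM at day 3. Every day 6 library thus lay far above every day 3 library. The log2 change was 1.17 ± 0.086 (SE, n = 3 libraries per group, adjusted p = 1.45e-06) under the miR-335-5p mimic and 1.08 ± 0.086 (adjusted p = 2.54e-06) under the NT mimic. In the annotation the start of Mrps6 lies 14 bases from that of Slc5a3, a sodium-coupled myo-inositol transporter on the same strand whose exons overlap it. Slc5a3 read 216.0, 241.6 and 259.1 CPM at day 6 and 128.4, 109.0 and 109.5 CPM at day 3 under the miR-335-5p mimic. With the NT mimic it read 202.3, 231.1 and 260.2 CPM at day 6 and 137.5, 119.1 and 122.4 CPM at day 3. Both genes were therefore higher at day 6 in every library, with log2 changes for Slc5a3 of 1.05 ± 0.11 (adjusted p = 2.54e-05) and 0.87 ± 0.11 (adjusted p = 8.47e-05). The sources used here do not give how shared reads were assigned between them, and the level of Mrps6 is uncertain.

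Mrps10 and Mrps7 fell most in the small subunit. Mrps10, the counterpart of bacterial S10 in the head of the subunit, stood at 35.02, 28.22 and 27.62 CPM at day 6 and 57.56, 55.34 and 52.47 CPM at day 3 under the miR-335-5p mimic. In the NT libraries it stood at 31.04, 25.35 and 28.45 CPM at day 6 and 59.44, 55.96 and 56.98 CPM at day 3. The days were well apart, with log2 changes of -0.86 ± 0.11 (adjusted p = 6.12e-05) and -1.02 ± 0.11 (adjusted p = 1.84e-05). Mrps7, whose bacterial counterpart S7 nucleates assembly of the head, stood at 112.5, 97.27 and 95.39 CPM at day 6 and 173.5, 210.3 and 208.1 CPM at day 3 under the miR-335-5p mimic. For the NT mimic Mrps7 had 107.6, 99.36 and 106.8 CPM at day 6 and 183.7, 221.6 and 218.5 CPM at day 3. Its log2 changes were -0.96 ± 0.11 (adjusted p = 2.92e-05) and -0.99 ± 0.11 (adjusted p = 2.07e-05). The exons of Mrps7 overlap those of Gga3 and Mif4gd on the opposite strand, and the strand setting of the counting is not given. Gga3, which encodes an adaptor of Golgi trafficking, fell by 0.86 under the miR-335-5p mimic and by 0.93 under the NT mimic on the log2 scale, and Mif4gd fell by 0.80 and by 0.70.

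Mrpl39, Mrpl32, Mrpl30 and Mrpl9 fell most among large subunit genes under both mimics. Mrpl39, a supernumerary protein with a fold akin to that of threonyl-tRNA synthetase, had 94.41, 76.52 and 81.60 CPM at day 6 and 124.3, 147.5 and 154.2 CPM at day 3 under the miR-335-5p mimic. Under the NT mimic it had 87.37, 80.17 and 83.52 CPM at day 6 and 140.5, 157.5 and 154.8 CPM at day 3. No day 6 library reached the lowest day 3 library, and the log2 changes were -0.75 ± 0.10 (adjusted p = 0.000117) and -0.85 ± 0.10 (adjusted p = 4.94e-05). Mrpl32, which must be cut by the m-AAA protease of the inner membrane before it joins the ribosome, had 19.05, 18.78 and 18.92 CPM at day 6 and 29.09, 37.10 and 34.06 CPM at day 3 under the miR-335-5p mimic. With the NT mimic it had 19.18, 17.79 and 17.88 CPM at day 6 and 32.68, 34.06 and 31.00 CPM at day 3. Its log2 changes were -0.82 ± 0.099 (adjusted p = 5.01e-05) and -0.83 ± 0.099 (adjusted p = 4.42e-05), and its day 6 libraries were the more uniform ones.

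Mrpl9, the counterpart of bacterial L9, had 84.50, 77.23 and 78.63 CPM at day 6 and 118.6, 134.2 and 133.2 CPM at day 3 under the miR-335-5p mimic. In the NT libraries it had 81.16, 77.84 and 79.15 CPM at day 6 and 126.4, 138.0 and 133.6 CPM at day 3. The log2 changes of Mrpl9 were -0.68 ± 0.074 (adjusted p = 2.48e-05) and -0.74 ± 0.074 (adjusted p = 1.33e-05). Mrpl30, the counterpart of bacterial L30, had 56.60, 47.80 and 51.97 CPM at day 6 and 78.31, 87.82 and 94.33 CPM at day 3 under the miR-335-5p mimic. For the NT mimic it had 54.85, 50.25 and 50.65 CPM at day 6 and 86.94, 85.44 and 87.44 CPM at day 3. Its log2 change was -0.74 ± 0.089 under both mimics (adjusted p = 5.09e-05 and 4.86e-05), and neither gene overlapped between days. The remaining 13 genes called lower under both mimics were Mrpl1, Mrpl10, Mrpl17, Mrpl19, Mrpl27, Mrpl28, Mrpl37, Mrpl38, Mrpl43, Mrpl45, Mrpl46, Mrpl47 and Mrpl53.

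**Figure D2:**
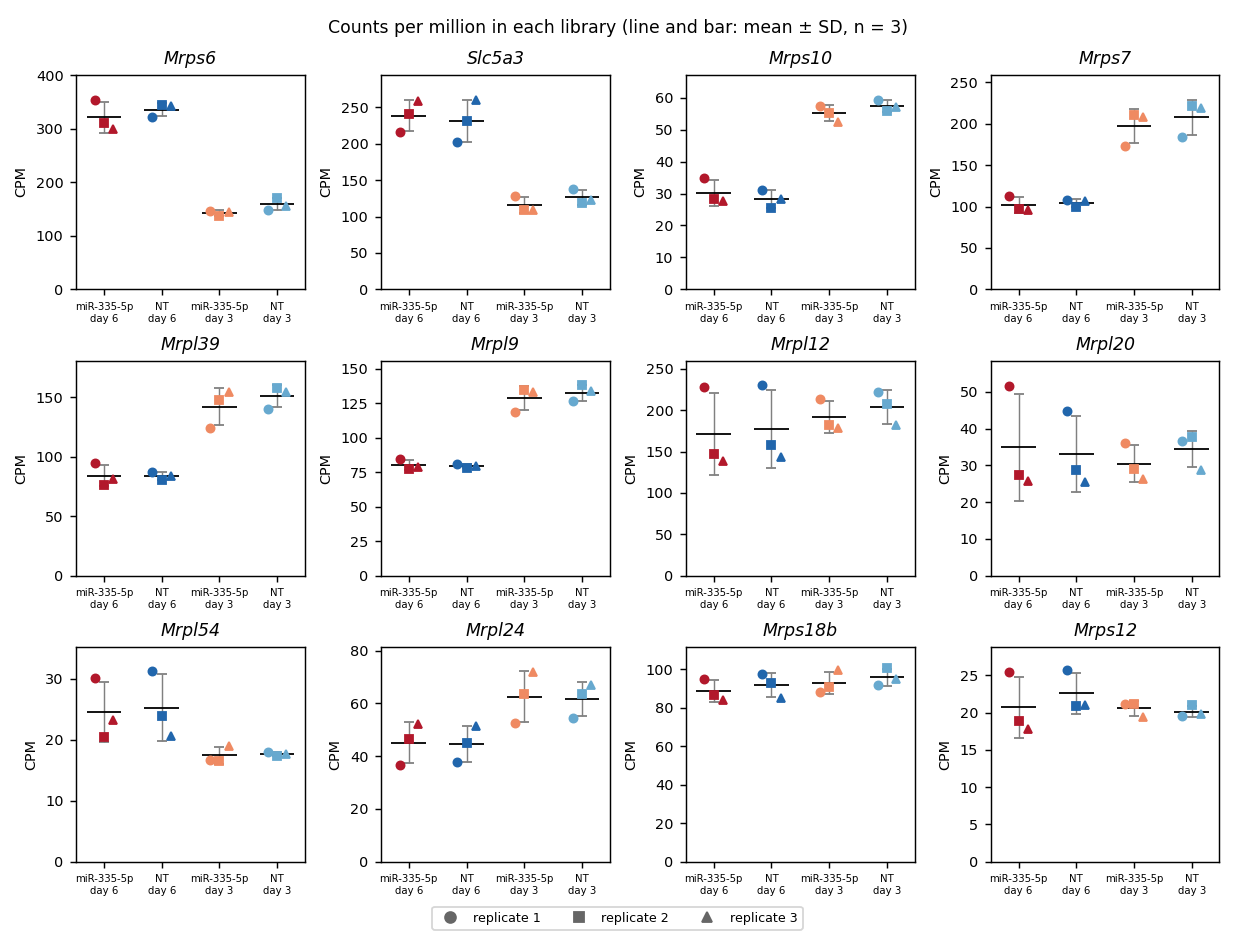
CPM of Mrps6, its neighbour Slc5a3 and 10 other mitoribosomal protein genes in each library (symbols mark replicate numbers, lines and bars the mean ± SD of 3 libraries, each y axis from 0). The days separate for the upper row and for Mrpl39 and Mrpl9, whereas the day 6 values of Mrpl12 and Mrpl20 reach from below to above those of day 3, with replicate 1 the highest.

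Short stretches of the promoters of Mrpl39, Mrpl32 and Mrpl9 are shown because these genes are the 3 of the 69 matched to a RefSeq promoter that carry the full palindromic motif of NRF1, a transcription factor known for nuclear genes of mitochondrial proteins, and all 3 fell between days. The sequences are from RefSeq, GRCm38.p6, read 5′ to 3′ on the strand of the gene, with the palindrome in capitals. The palindrome opens 125 bases before the annotated start of Mrpl39 (chr16:84735350-84735379, minus strand), 87 bases before that of Mrpl32 (chr13:14613105-14613134, minus strand) and 28 bases before that of Mrpl9 (chr3:94443298-94443327, plus strand).
Mrpl39: aaggagaggcGCGCATGCGCccccgcgtgg
Mrpl32: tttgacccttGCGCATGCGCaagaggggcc
Mrpl9: aggcgcagctGCGCATGCGCggggtccttc
The search covered 250 bases before to 50 bases after each start, on both strands. The palindrome was found in 4.3% of the 69 promoters and in 2.21% of those of 9411 tested genes. Over all tested genes, 18.8% with and 16.3% without the palindrome were called lower at day 6 under the miR-335-5p mimic. For the NT mimic these shares were 19.2% and 16.5%. The shorter form GCATGCGC, which every palindrome contains, was found in 8 of 69 promoters (11.6%) and in 5.77% of tested genes. Of these 8 genes (Mrpl9, Mrpl10, Mrpl17, Mrpl22, Mrpl32, Mrpl33, Mrpl39 and Mrps18b), 6 were called lower at day 6 under the miR-335-5p mimic and 5 under the NT mimic, beside 13 and 17 of the 61 without it. Over all tested genes the share called lower was 18.6% with and 16.2% without this motif under the miR-335-5p mimic, and 18.2% with and 16.5% without it under the NT mimic. The YY1 motif AAGATGGC was found in 12 of 69 promoters (17.4%, against 4.96% of tested genes) and the ETS motif CCGGAAGT in 11 (15.9%, against 8.95%). Of the 11 genes with the ETS motif, 27.3% were called lower under the miR-335-5p mimic and 18.2% under the NT mimic. Among the 58 without it these shares were 27.6% and 34.5%. Over all tested genes they were 16.9% and 17% with the ETS motif and 16.3% and 16.6% without it. A match is a description of these letters and not a site of binding, which was not measured.

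Genes with a defined place in the ribosome did not all move alike. Mrpl45, which anchors the large subunit to the inner membrane, had 92.28, 80.36 and 76.17 CPM at day 6 and 109.0, 127.4 and 130.1 CPM at day 3 under the miR-335-5p mimic. Under the NT mimic Mrpl45 had 88.84, 73.91 and 74.72 CPM at day 6 and 117.2, 132.4 and 123.2 CPM at day 3. The days did not overlap, and the log2 changes were -0.56 ± 0.11 (adjusted p = 0.00117) and -0.65 ± 0.11 (adjusted p = 0.000426). Mrpl27 and Mrpl16, which lie near the site of peptide bond formation, had log2 changes of -0.68 and -0.46 under the miR-335-5p mimic, both called (adjusted p = 0.000734 and 0.00674). With the NT mimic Mrpl27 was called at -0.45 (adjusted p = 0.00917) and Mrpl16, at -0.31, was not (adjusted p = 0.0454, and 0.00947 with the block). Mrpl3, a protein of the same core, had a log2 value of -0.24 under the miR-335-5p mimic (adjusted p = 0.091, and 0.0106 with the block) and of -0.28 under the NT mimic (adjusted p = 0.0509, and 0.00423 with the block).

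For several others the 2 days overlapped. Mrps12, the counterpart of the bacterial S12 protein of the decoding centre, had 25.42, 18.93 and 17.81 CPM at day 6 and 21.20, 21.19 and 19.41 CPM at day 3 under the miR-335-5p mimic. Its log2 value was 0.0084 with a 95% interval of -0.29 to 0.31, and 0.17 (-0.14 to 0.47) under the NT mimic. Mrpl58, a peptidyl-tRNA hydrolase that also rescues stalled ribosomes, had 22.64, 19.33 and 19.62 CPM at day 6 and 19.24, 18.91 and 24.15 CPM at day 3 under the miR-335-5p mimic, with a log2 value of -0.017 (-0.26 to 0.23). In the NT libraries it was -0.029 (-0.28 to 0.22). With library totals alone as the scale, which moved the median of all genes up by 0.16 and 0.17, both values of Mrpl58 were positive. Mrps36, now known as a subunit of the 2-oxoglutarate dehydrogenase complex, had 22.29, 15.80 and 15.39 CPM at day 6 and 17.34, 15.67 and 14.95 CPM at day 3 under the miR-335-5p mimic. The log2 value of Mrps36 was 0.16 (adjusted p = 0.481), and 0.24 under the NT mimic (adjusted p = 0.273).

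Mammals carry 3 paralogues of bacterial S18, which occupy different places in the ribosome. Mrps18a, which sits in the large subunit despite its symbol, had 95.92, 92.97 and 84.52 CPM at day 6 and 98.61, 105.4 and 103.1 CPM at day 3 under the miR-335-5p mimic. For the NT mimic Mrps18a had 94.90, 92.20 and 83.79 CPM at day 6 and 108.1, 110.2 and 108.7 CPM at day 3. Its days were apart under both mimics, with a log2 change of -0.27 ± 0.074 (adjusted p = 0.00994) under the NT mimic, and a value of -0.17 (adjusted p = 0.0803) under the miR-335-5p mimic. Mrps18c had log2 values of -0.29 (adjusted p = 0.0662) and -0.38 (adjusted p = 0.0221). Mrps18b, with 94.91, 86.82 and 84.12 CPM at day 6 and 88.15, 90.88 and 99.37 CPM at day 3 under the miR-335-5p mimic, had log2 values of -0.067 and -0.062 with overlapping days, and both were positive under library totals, with the same shift of all genes. Mrps30, the other protein of the large subunit with a small subunit symbol, had log2 values of -0.23 under each mimic (adjusted p = 0.181 and 0.182).

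By origin, 14 of the 47 genes with a bacterial counterpart (29.8%) fell under each mimic, and 7 of the 31 supernumerary genes (22.6%) under the miR-335-5p mimic and 10 (32.3%) under the NT mimic, beside 16.5% and 16.7% of all genes. This division was made after the values were seen. The median log2 value was -0.29 and -0.24 for the bacterial and the supernumerary genes under the miR-335-5p mimic, and -0.31 and -0.25 under the NT mimic. When the 78 genes were divided at their median level in CPM, 12 of the 39 more abundant (30.8%) and 9 of the 39 less abundant genes (23.1%) fell under the miR-335-5p mimic, and 14 (35.9%) and 10 (25.6%) under the NT mimic. Exons of 17 of the 78 genes overlap another gene in the annotation, and of the 19 lower under both mimics this holds for Mrpl9, Mrpl19, Mrpl27, Mrpl43, Mrpl47 and Mrps7. Mrpl43 shares exon positions with Twnk, the mitochondrial DNA helicase, on the opposite strand, which fell by 0.73 and by 0.79 on the log2 scale.

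Replicate 1 of day 6 stood apart for most of the 78 genes, and this bears on every count above. Under the miR-335-5p mimic, replicate 1 was the highest of the 3 day 6 libraries for 75 of 78 genes (96.2%), against 39.3% of all genes, and its median excess over the mean of replicates 2 and 3 was 0.25 on the log2 scale. Under the NT mimic the same held for 59 of 78 genes (75.6%), against 39.6% of all genes, with a median excess of 0.14. In both mimics at once 58 genes were highest in replicate 1 (74.4%), against 30.7% of all genes. At day 3 the median excess of replicate 1 was -0.050 and -0.024. The summed level of the 78 genes was 4540, 3791 and 3728 CPM in the day 6 libraries and 4673, 4849 and 4896 CPM in the day 3 libraries under the miR-335-5p mimic. With the NT mimic it was 4357, 3962 and 3835 CPM at day 6 and 4834, 5125 and 4877 CPM at day 3. All day 6 sums were below all day 3 sums, with replicate 1 nearest to day 3.

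**Figure D3:**
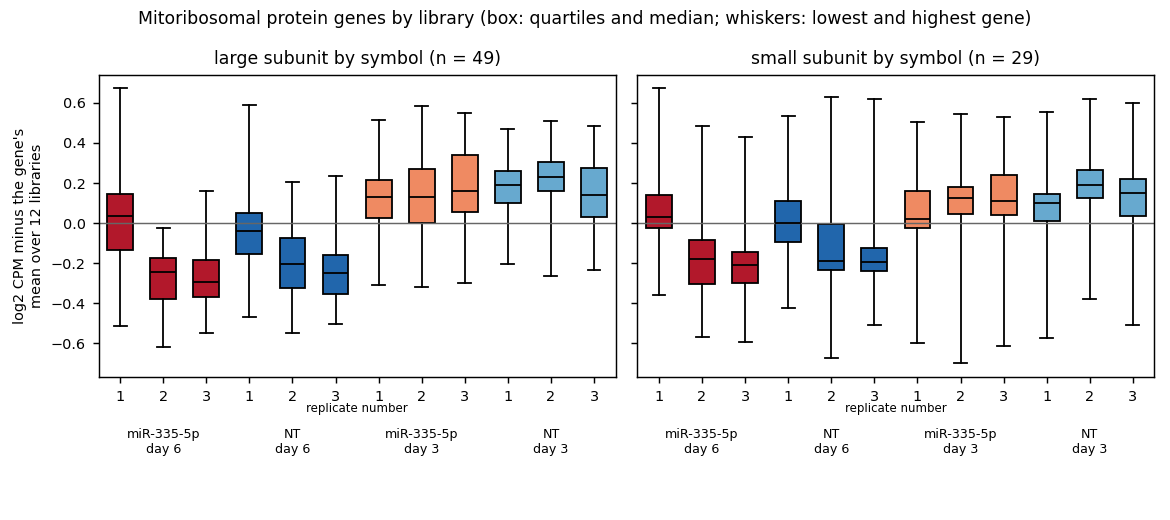
Log2 CPM of each gene minus its own mean over the 12 libraries (y axis), as boxes over the 49 large subunit and 29 small subunit genes for each library, with boxes at the quartiles and median and whiskers at the lowest and highest gene. In both panels replicate 1 of day 6 lies above replicates 2 and 3 of the same mimic, and all day 3 medians lie above 0.

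Mrpl20 showed this most, with 51.60, 27.36 and 25.61 CPM at day 6 under the miR-335-5p mimic and 44.88, 28.78 and 25.56 CPM under the NT mimic. Its bacterial counterpart L20 is an early binder of the large rRNA. Mrpl12 had 228.6, 146.8 and 138.2 CPM at day 6 and 213.8, 182.6 and 179.0 CPM at day 3 under the miR-335-5p mimic. In the NT libraries Mrpl12 had 230.9, 157.5 and 143.3 CPM at day 6 and 221.7, 208.2 and 181.9 CPM at day 3. The log2 values of Mrpl12 between days were -0.16 (adjusted p = 0.542) and -0.20 (adjusted p = 0.443), since replicate 1 of day 6 lay above all day 3 libraries and replicates 2 and 3 lay below them. Mrpl24 went the other way, with replicate 1 the lowest in all 4 groups, at 36.74, 46.49 and 52.32 CPM at day 6 and 52.58, 63.51 and 71.82 CPM at day 3 under the miR-335-5p mimic. Its days did not overlap under either mimic, with log2 values of -0.47 and -0.46. The adjusted p was 0.0285 and 0.0306 without the block and 5.03e-05 and 5.35e-05 with it.

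Taken by replicate number, the median log2 difference of day 6 over day 3 across the 78 genes was -0.069, -0.38 and -0.40 for numbers 1, 2 and 3 under the miR-335-5p mimic. For the NT mimic it was -0.18, -0.40 and -0.36. Without replicate 1 in all groups, 43 genes were called lower under the miR-335-5p mimic and 41 under the NT mimic, beside 20.7% and 21% of all genes called lower. Without replicate 2 these counts were 5 and 7, beside 3.65% and 3.85% of all genes, and without replicate 3 they were 6 and 9, beside 6.18% and 6.58%. Mrpl9, Mrpl17, Mrps7 and Mrps10 were called lower in each of these 6 fits. When a single library was left out at a time, 14 genes under the miR-335-5p mimic and 13 under the NT mimic were called in all 12 fits, among them Mrps6, Mrps7, Mrps10, Mrpl9, Mrpl30, Mrpl32, Mrpl39 and Mrpl45. Leaving out replicate 1 of the miR-335-5p mimic at day 6 by itself gave 33 genes lower under that mimic (42.3%), beside 15.5% of all genes.

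Markers moved with replicate 1 at day 6. All 8 tested adipocyte markers were highest in it under both mimics, Fabp4 for example at 5110, 3497 and 2990 CPM under the miR-335-5p mimic and 4844, 3208 and 2830 CPM under the NT mimic. Lep, the other adipocyte marker, was at most 0.35 CPM. The 3 cycling markers were also highest in it, Mki67 at 76.01, 37.76 and 36.32 CPM under the miR-335-5p mimic and 61.26, 45.23 and 44.56 CPM under the NT mimic. None of the 5 preadipocyte and fibroblast markers was highest in it, and Pdgfra stood at 183.2, 529.5 and 564.9 CPM and at 201.7, 548.9 and 641.6 CPM. Cd68, the one leukocyte marker above the filter, had 5.913, 2.221 and 1.761 CPM under the miR-335-5p mimic and 6.717, 1.541 and 1.548 CPM under the NT mimic. Genes of the nuclear-encoded respiratory chain shared the excess of replicate 1, with medians of 0.36 and 0.22, and cytosolic ribosomal protein genes did not, with medians of -0.054 and -0.034. At day 3 replicate 1 was likewise the highest for 6 of the 8 adipocyte and 2 of the 3 cycling markers under each mimic, with median excesses of 0.34 and 0.25 for the adipocyte and 0.54 and 0.64 for the cycling markers, where the 78 genes had no excess. The preadipocyte and fibroblast markers differed between days, with median excesses of 0.53 and 0.074 at day 3 and of -0.49 and -0.50 at day 6. Replicate 1 of day 3 was the highest for 0 and 2 of these 5 markers. The part of these differences in the results was not tested.

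The factors that serve the mitochondrial ribosome were read beside its proteins. Dap3, a small subunit protein with another kind of symbol, fell by 0.75 and by 0.67 on the log2 scale, at 122.9, 103.3 and 109.0 CPM at day 6 and 180.8, 178.2 and 205.0 CPM at day 3 under the miR-335-5p mimic. Gadd45gip1, a large subunit protein, was called higher at log2 0.73 and 0.65. Of 5 such subunits with other symbols, 2 fell and 1 rose under the miR-335-5p mimic, and 3 fell and 1 rose under the NT mimic, and the counts of this and the following lists are to be read beside the 16.5% and 16.7% of all genes called lower. Of 11 translation factors 4 and 7 fell and none rose, the largest fall being that of the elongation factor Gfm1 at -0.81 and -0.87. The other elongation factor Tufm was not called, at -0.22 (adjusted p = 0.25) and -0.24 (adjusted p = 0.199).

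Of 26 assembly and rRNA maturation factors 11 fell and 2 rose under the miR-335-5p mimic, and 12 fell and 2 rose under the NT mimic. Rpusd3, a pseudouridine synthase family member needed for the mitochondrial large rRNA, fell most at -1.22 and -1.24. Mettl17, a methyltransferase-like factor of the small subunit, rose most at 1.50 and 1.34. Among 20 aminoacyl-tRNA synthetase genes 7 and 8 fell and 1 rose, led by Nars2 at -1.03 and -1.14 and by Cars2 at 0.96 and 0.95. The mitochondrial RNA polymerase Polrmt and the packaging factor Tfam were not called, at -0.037 and -0.0064 for Polrmt (adjusted p = 0.735 and 0.956) and 0.0043 and -0.069 for Tfam (adjusted p = 0.97 and 0.5). In their list of 11 genes, 2 (18.2%) and 3 (27.3%) fell, of which the first share is near that of all genes, and 1 rose, namely Polg, the polymerase of mitochondrial DNA, at 0.52 and 0.57.

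Among 9 regulators of nuclear genes for mitochondria, the coactivator Ppargc1a was the one called. It had 7.935, 10.70 and 5.936 CPM at day 6 and 1.622, 0.9004 and 0.7622 CPM at day 3 under the miR-335-5p mimic, and 7.276, 12.77 and 8.005 CPM at day 6 and 1.875, 1.292 and 1.088 CPM at day 3 under the NT mimic. Its log2 changes were 2.89 ± 0.36 (adjusted p = 6.41e-05) and 2.71 ± 0.35 (adjusted p = 8.14e-05), at low levels in both groups. Nrf1 had log2 values of 0.28 (adjusted p = 0.0263) and 0.27 (adjusted p = 0.0301). Of 15 genes of import, chaperones and the outer membrane 4 fell under each mimic and none rose, and Tomm20, a receptor for imported precursors, fell most at -0.53 and -0.56. With the replicate block, beside 24.7% and 24.3% of all genes called lower, 3 and 3 of the subunits with other symbols fell, 6 and 7 of the translation factors, 12 and 12 of the assembly factors, 12 and 12 of the synthetases, 5 and 4 of the transcription list, 5 and 5 of the import list and 1 and 1 of the regulators, namely Yy1.

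Cytosolic ribosomal protein genes and respiratory chain genes gave the scale. Of 83 tested cytosolic ribosomal protein genes 59 fell under the miR-335-5p mimic and 72 under the NT mimic and none rose, with medians of -0.63 and -0.69. Rpl4 led under the miR-335-5p mimic at -1.08 and Rplp0 under the NT mimic at -1.13. Of 83 tested nuclear-encoded respiratory chain subunits 25 and 32 fell and 2 rose, with medians of -0.31 and -0.37. Ndufc2 of complex I led the falls under the miR-335-5p mimic at -0.82, and the 2 that rose were Cox6a2 and Cox7a1, subunits of cytochrome c oxidase known from muscle, both at low levels. Cox6a2 had 1.263, 1.363 and 2.264 CPM at day 6 and at most 0.1801 CPM at day 3 under the miR-335-5p mimic.

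**Figure D4:**
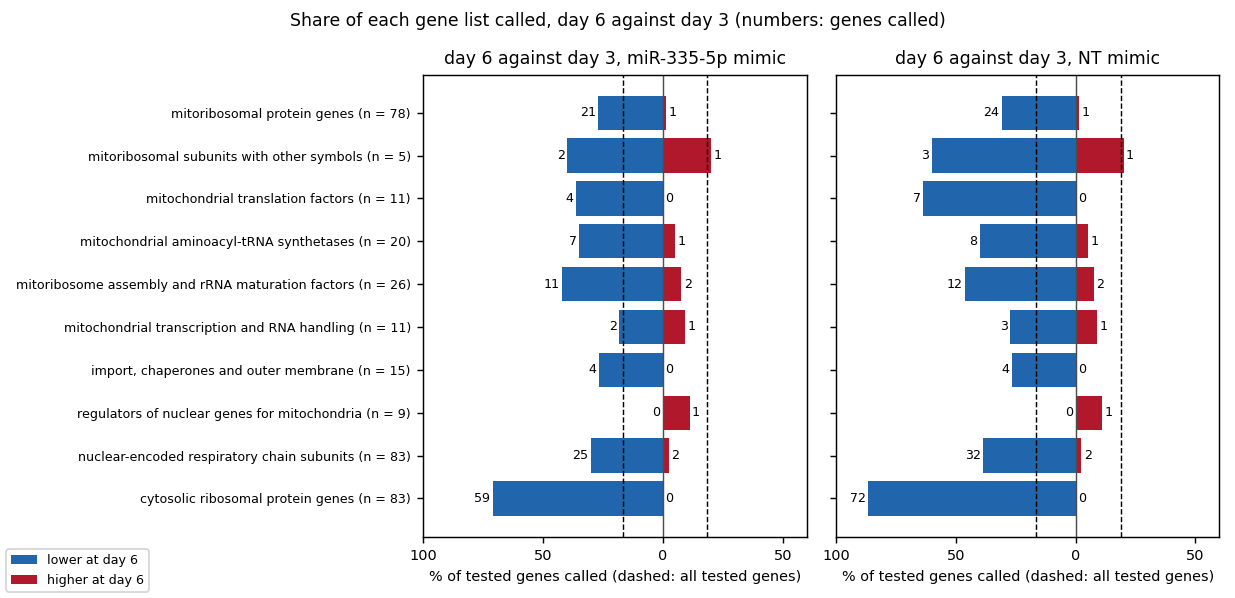
Share of the tested genes of each list called lower (left, blue) or higher (right, red) at day 6 against day 3 under miR-335-5p and NT mimics, with the number of genes at each bar and dashed lines at the shares over all 11703 genes. Bars for calls lower reach beyond the dashed line for every list but that of the regulators, in which none was called lower.

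Next, the effect of the mimic was compared within each day. No mitoribosomal protein gene was called for the miR-335-5p mimic against the NT mimic at day 3 or day 6, and in the fit without a block none had an unadjusted p under 0.05. The background was 0% of 11703 genes called at day 3, 0% at day 6 and 0% for the difference of the mimic effects between days. At an unadjusted p under 0.05 there were 59, 21 and 29 of all 11703 genes in these comparisons with edgeR, and DESeq2 gave 56, 16 and 24 of all genes, none of them mitoribosomal, and no calls. The fitted log2 values of the 78 genes ran from -0.18 to 0.15 at day 3 and from -0.16 to 0.15 at day 6. Their medians were -0.039 and -0.0088, beside -0.00070 and -0.0055 over all genes, with 53 and 43 of 78 negative. In the fit without a block, the 95% intervals of the 78 genes reached from -0.79 to 0.54 at day 3 and from -0.54 to 0.69 at day 6. The widest intervals set these bounds. The half-width of the interval differed between genes, between 0.15 for Mrps9 and 0.62 for Mrpl20 at day 3 and between 0.15 and 0.61 for the same genes at day 6, with a median of 0.24 on each day. A difference that could be seen in one gene in this fit thus could not in another. This fit does not use the pairing by replicate number.

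**Figure D5:**
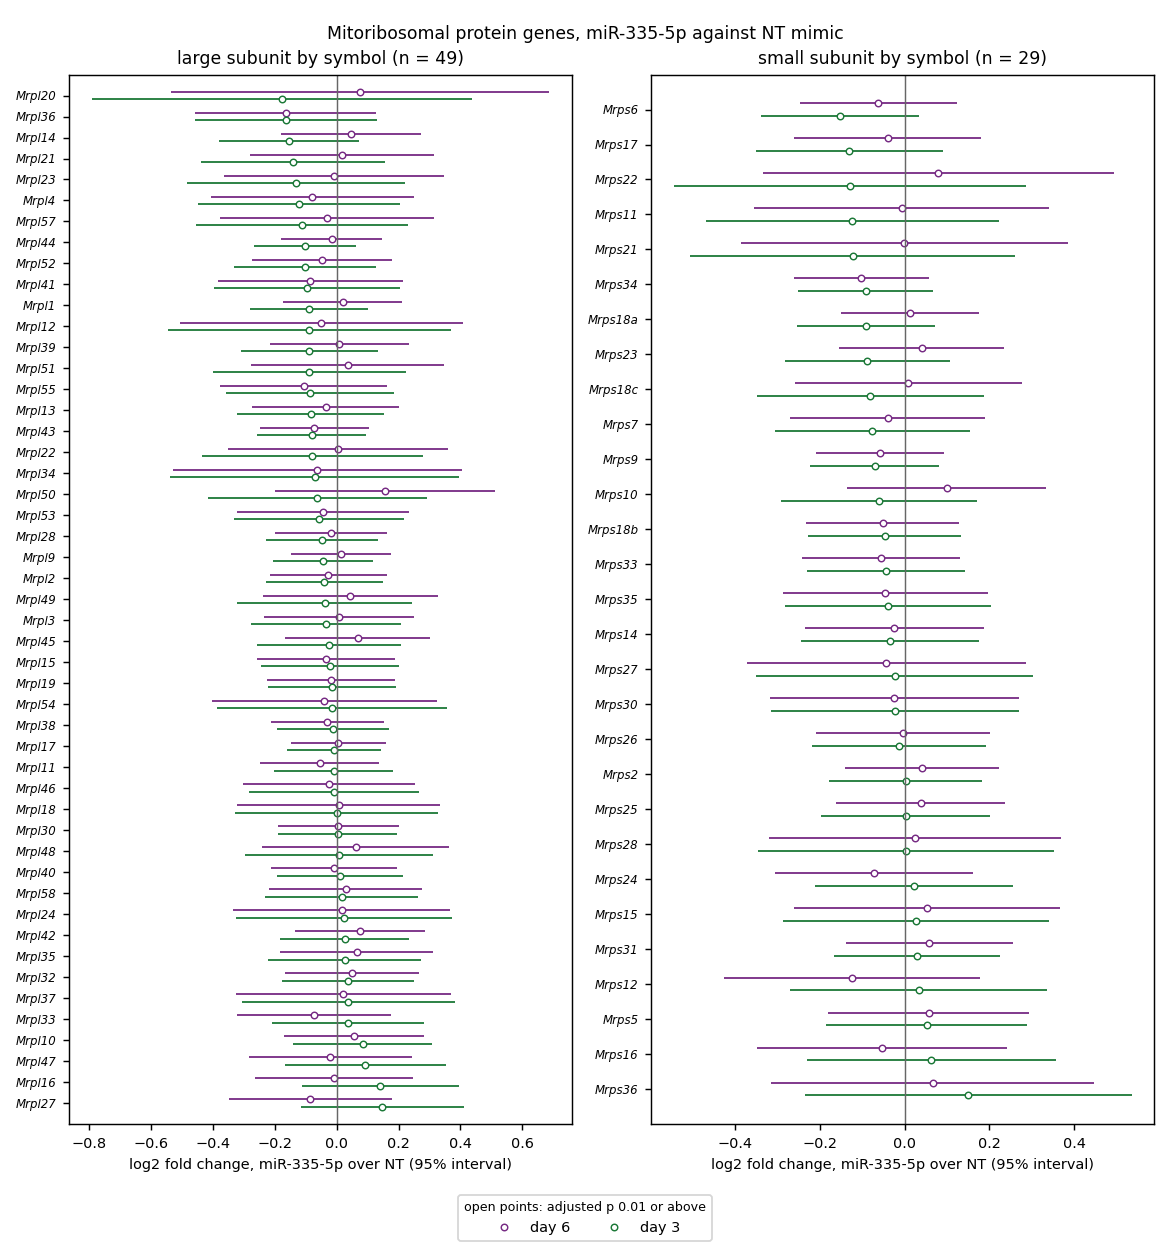
Fitted log2 fold change of the miR-335-5p mimic over the NT mimic (x axis, with its 95% interval) for each of the 78 genes at day 6 (purple) and day 3 (green). The intervals are those of the fit without a block. Every one of them holds 0, and the widest is that of Mrpl20.

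Within a day, libraries of the same replicate number were compared as pairs. At day 3, 20 of the 78 genes were lower under the miR-335-5p mimic in all 3 pairs and 4 were higher, beside 14.1% of all genes lower and 14.1% higher. At day 6, 6 were lower and 6 higher in all 3 pairs, beside 14.9% and 10.2%. With a block by number inside each day, an unadjusted p under 0.05 was seen for 4 genes at day 3 (Mrps6, Mrpl14, Mrpl20 and Mrpl21) and 1 at day 6 (Mrpl50), and none was called. In this fit 853 and 593 of all genes had such a p, and 4 genes outside the 78 were called at day 3. For the difference of the mimic effects 361 of all genes had such a p and none was called. Of the 78 genes these were Mrpl14, Mrpl20, Mrpl50 and Mrps22. The median over the 78 genes was -0.053, -0.091 and 0.014 at day 3 and 0.059, -0.067 and -0.022 at day 6 for numbers 1, 2 and 3, so the pairs did not share a sign.

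The genes with the largest fitted values were these. At day 3 Mrpl20, Mrpl36 and Mrpl14 had the lowest log2 values, at -0.18, -0.16 and -0.15, and Mrps36, Mrpl27 and Mrpl16 the highest, at 0.15, 0.15 and 0.14. Mrpl14, a protein at the subunit interface, had 63.10, 56.91 and 72.05 CPM under the miR-335-5p mimic and 70.98, 67.88 and 74.75 CPM under the NT mimic at day 3, and its groups overlapped. At day 6 Mrpl36, Mrps12 and Mrpl55 had the lowest values, at -0.16, -0.12 and -0.11, and Mrpl50, Mrps10 and Mrps22 the highest, at 0.15, 0.099 and 0.080. Mrpl36, the counterpart of the short bacterial protein L36, had 19.47, 15.91 and 17.41 CPM under the miR-335-5p mimic and 18.24, 21.96 and 18.91 CPM under the NT mimic at day 3. At day 6 it had 20.77, 16.56 and 14.99 CPM under the miR-335-5p mimic and 19.74, 19.04 and 19.85 CPM under the NT mimic. In each day a library of the miR-335-5p mimic lay inside or above the NT range, and the 95% intervals were -0.46 to 0.13 on both days.

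For the supernumerary protein Mrpl50 the day 6 values were 38.31, 26.25 and 27.07 CPM under the miR-335-5p mimic and 33.28, 24.45 and 24.55 CPM under the NT mimic, higher in all 3 pairs (blocked within the day, log2 0.15 and adjusted p = 0.944). Without replicate 1 of the miR-335-5p mimic the unpaired log2 value of Mrpl50 at day 6 was -0.042. The difference of the mimic effects between the days was largest for Mrpl20 at 0.25 and Mrpl50 at 0.22 on the positive side and for Mrpl27 at -0.23 and Mrps12 at -0.16 on the negative side, none called.

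The mature miR-335-5p and its sites in these genes are shown because a seed match is how a microRNA is commonly expected to find a message. The mouse sequence is from RefSeq, GRCm38.p6 (chr6:30741314-30741336, plus strand), with the seed, bases 2 to 8, in capitals.
mmu-miR-335-5p: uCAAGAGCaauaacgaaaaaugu
Matches of 7 letters, GCTCTTG to bases 2 to 8 or CTCTTGA to bases 2 to 7 followed by an A, were searched on the message strand of the longest annotated 3′ UTR. They were found in 17 of the 78 genes (21.8%), against 22.7% of 11564 tested genes. Mrps23 (chr11:88211266-88211295, plus strand) and Mrps36 (chr13:100735996-100736025, minus strand) were the 2 genes with the 8-letter match GCTCTTGA, in which both 7-letter forms overlap. Mrpl36 (chr13:73331892-73331920 and chr13:73332019-73332047, plus strand) is shown for its log2 value, the lowest of the 78 genes at day 6, and is 1 of 8 genes with both 7-letter forms at separate places. The sites are from GENCODE on GRCm38, with the match in capitals.
Mrps23: ttgggttcattGCTCTTGAgatgatcagca
Mrps36: cctattaacttGCTCTTGAttatgaaatgt
Mrpl36, first site: gccagctttatCTCTTGAgacaaagtctg
Mrpl36, second site: tgagccaaaaaGCTCTTGtggggtgtgca
The log2 value of Mrps23 was -0.088 at day 3 and 0.041 at day 6, that of Mrps36 was 0.15 at day 3 and 0.066 at day 6, and that of Mrpl36 was -0.16 on both days, none of them called. Over the 8 genes with both forms (Mrpl3, Mrpl19, Mrpl36, Mrpl48, Mrpl51, Mrps5, Mrps17 and Mrps35) the log2 value was negative for 6 at day 3 and 4 at day 6, with medians of -0.037 and -0.0051, and the highest values were 0.053 for Mrps5 at day 3 and 0.061 for Mrpl48 at day 6. The 17 genes with a match had median log2 values of -0.021 at day 3 and 0.0077 at day 6, and the 61 without one -0.044 and -0.016. Over all tested genes the medians were 0.0068 with and -0.0032 without a match at day 3, and -0.0021 and -0.0065 at day 6.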

How the data were processed

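The authors deposited expected counts per gene for 12 libraries in 4 groups of 3, unscaled. Per the labels, the tools were HISAT2 2.2.1 and RSEM 1.3.1 and the build was mm39, with no roles stated. The annotation, the strandedness of counting and any filters were not given in the sources used here, and overlapping genes are therefore uncertain. A share of 3.37% of values was not whole (tolerance 1e-06), and all values were rounded.

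Symbols came from RefSeq on GRCm38.p6, in which 16387 numerical identifiers were found and 27 were not. The build differs from that of the files, so coordinates are given only for printed reference sequences. Transcript lengths and 3′ UTRs are from GENCODE on GRCm38.

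All 12 libraries entered 1 edgeR 4.0.16 fit in R 4.3.3 (filterByExpr, TMM factors, robust glmQLFit and glmQLFTest, two-sided, Benjamini-Hochberg over 11703 genes, calls at adjusted p below 0.01). DESeq2 1.42.0, other scalings and filters, the replicate block, a fit of only the groups compared, leaving out libraries, subunits by place and a threshold of 0.05 were alternatives. Leaving out a replicate number in all groups was added after the data were seen. Log2 CPM of single libraries used an offset of 0.125 CPM. At these totals 1 CPM is about 18 counts, and 3 libraries per group limit the precision. The fit was tested on simulated data. Residuals of libraries that share a replicate number correlated at 0.485 to 0.825 within a day (6 pairs) and 0.253 to 0.541 across days (12 pairs), so the numbers pair the samples, although the labels do not say what they mark.

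The genes and lists were chosen with earlier results of these data known. Genes were named by rule, namely the 6 largest called changes each way between days, the 3 largest values each way between mimics, the 2 largest each way for the difference of the mimic effects, a list of roles, 6 pathway genes, and the called gene with the largest change each way in each list. Mrpl24, Mrpl51, Mrpl54, Mrps9, Mrps28, the markers, Yy1, the neighbours of Mrps6, Mrps7 and Mrpl43, Mrps23 and the genes listed by call or by seed match were named after their values were seen.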

Additional observations from a re-analysis of the deposited data

How the results depend on the processing

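Between days and in either direction, 22 genes were called under the miR-335-5p mimic and 25 under the NT mimic, beside 4061 and 4163 of all 11703 genes. DESeq2 called 28 and 30, beside 4836 and 4905 of all genes. The RLE or upper quartile factors, no filter or a mean of at least 5 CPM gave 20 to 24. A fit of only the groups compared gave 16 and 21. With library totals alone 13 and 13 were called, all of the 11 lower ones among those called with TMM, and a threshold of 0.05 gave 40 and 45. Counts over all genes are not given here for this threshold, the filters, the RLE or upper quartile factors or the groups compared. The replicate block, for which the pairing is given above, gave 36 and 39, beside 6042 and 6069 of all genes. It gave no call of these genes between mimics. Leaving out libraries gave 6 to 44 and 8 to 42 genes. Under the NT mimic the count was 16, 14 and 16 without replicate 1, 2 or 3 of its day 3, and 15 and 14 without replicate 2 or 3 of its day 6. In these fits 19.2%, 16.7%, 19.2%, 17.9% and 16.7% of the 78 genes were lower, beside 13.7%, 12.4%, 13.7%, 11.8% and 12.8% of all genes. Between mimics 0 of the 78 genes were called in any of these fits.

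With library totals the median log2 of day 6 over day 3 under the NT mimic was -0.23 for the large and -0.071 for the small subunit. Leaving out libraries gave medians from -0.50 to -0.27 and -0.35 to -0.15 under the miR-335-5p mimic, and from -0.45 to -0.34 and -0.35 to -0.22 under the NT mimic, for the large and the small subunit. For the mimic effect at day 3 they ran from -0.083 to -0.010 and -0.071 to -0.013. At day 6 they ran from -0.088 to 0.052 and -0.12 to 0.046, and for the difference of the mimic effects from -0.069 to 0.087 and -0.061 to 0.063. The lowest values at day 6 came without replicate 1 of the miR-335-5p mimic at day 6.

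Some uncalled values changed sign. Under library totals the median of all genes moved up by 0.16 and 0.17 as well, and for the other settings the cause was not tested. Between days under the miR-335-5p mimic, Mrpl58 was 0.15 with library totals, 0.020 with upper quartile factors and 0.0075 at a mean of at least 5 CPM, and -0.16 to 0.14 without single libraries or numbers. Mrps12 was -0.0028 with no filter, -0.0011 with the block and -0.17 to 0.10 on leaving out, Mrps18b was 0.10 with library totals and -0.17 to 0.026 on leaving out, and Mrps36 was -0.037 to 0.25 on leaving out. Under the NT mimic with library totals, Mrpl58 was 0.15 and Mrps18b 0.11. On leaving out, the mimic effect at day 6 ran from -0.042 to 0.32 for Mrpl50, -0.019 to 0.18 for Mrps10 and -0.15 to 0.26 for Mrps22, and the difference of the mimic effects ran from -0.15 to 0.54 for Mrpl20.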

Other observations

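The least abundant of these genes had at least 145 counts in each library. For the spread within groups, edgeR's common dispersion over all tested genes was 0.0278 without a block, 0.00833 with the replicate block and 0.00262 with the block inside each day. In annotated promoters of RefSeq, the motif AAGATGGC known for YY1 was the commonest of those searched, present in 12 of 69 mitoribosomal protein genes (17.4%) and 4.96% of tested genes, and 3 and 5 of these 12 were called lower at day 6 under the miR-335-5p and the NT mimic, beside 16 and 17 of the 57 without it. As shares this was 25% and 41.7% of the genes with the motif and 28.1% and 29.8% of those without, and over all tested genes 20.3% and 20.6% with and 16.2% and 16.4% without it.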
